A study of Homo sapiens with 4 samples.

Results

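The genes examined here are those of store-operated calcium entry in HEK293 cells together with members of the TRPC channel family. They were the sensors STIM1 and STIM2, the pore subunits ORAI1, ORAI2 and ORAI3, and the channels TRPC1, TRPC4, TRPC5 and TRPC6. Members were listed by name, and the rule that finds their probes uses no measured value. Each of the 9 genes was represented by 1 RefSeq target of 3 probes, so that 27 of the 71998 probes in the table and 9 of its 17217 named genes belonged to the set. HEK293 is a line of human embryonic kidney cells transformed with adenovirus DNA, widely used to express cloned receptors and channels. All 4 samples were untreated HEK293 cells in ordinary serum-containing medium, from separate plates and separate RNA extractions. Each was hybridised in 1 colour to a NimbleGen array, and the design held no second condition. A single cell line stands behind all values, so the spread given is that between its cultures, and a message in few cells cannot be told apart from little message in every cell.

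Cells keep a store of calcium in the endoplasmic reticulum, and receptors coupled to phospholipase C release it through IP3 receptors. When the store empties, STIM proteins, which carry a calcium-binding domain inside the store, cluster where the endoplasmic reticulum touches the plasma membrane and open ORAI channels there, so that calcium enters and the store is refilled. TRPC proteins form cation channels that open downstream of phospholipase C, and their part in store-operated entry has long been debated. HEK293 cells are a common host for expressing STIM, ORAI and TRPC proteins, so the message the cells already hold is of practical interest.

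Detection followed the study's own rule. Genes for seminal proteins, thought to be silent in these cells, gave each array a baseline, 2 SD above their mean, and a gene was called detected where its log2 level lay above that baseline on average over the 4 arrays. The distance of a gene is its level minus the baseline of the same array. The study took the mean of the control genes, here 7.47 log2 units, as zero expression. Genes between that mean and the baseline it described as present without reaching significance, so not detected here does not mean absent. The baselines were 9.47, 9.94, 10.69 and 10.32 log2 units on replicates 1 to 4, a mean of 10.10 ± 0.52 (SD, n = 4). They rested on 10 control genes, of which AFG2A (listed by the study as SPATA5) and SPATA13 ran from 9.21 to 10.73 and the other 8 from 6.05 to 7.72. Each probe binds with its own affinity. The baseline is 1 value per array for all genes, so subtracting it does not remove this. Neither levels nor distances therefore rank genes by amount of message. Among marker genes, all 4 neurofilament-type genes were detected, while 0 of 3 nephric transcription factors, 1 of 9 kidney tubule and podocyte genes (LRP2) and 0 of 6 blood and endothelial genes were. The neurofilament gene NEFM separated the arrays, at 13.57 and 13.09 log2 units on replicates 1 and 3 and 8.32 and 8.08 on replicates 2 and 4. The sample titles give all 4 as HEK293 and differ only by number.

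Of the 9 genes, 3 were detected: STIM1, ORAI1 and ORAI2. Over all named genes the detected share was 52.7%. STIM1 and ORAI1 lay above the baseline on all 4 arrays, as did 45.0% of all named genes, and the same 2 genes passed a one-sided limma test at an adjusted p of 0.05, as did 45.9%. The median distance of the 9 genes was -0.65 log2 units, against 0.26 over all named genes. By role, 1 of 2 sensors, 2 of 3 pore subunits and 0 of 4 TRPC members were detected. The counts leaned on the height of the baseline and ranged from 1 gene with a baseline of 3 SD to 6 genes without SPATA5 and SPATA13 as controls. At those settings 6731 and 12747 of the 17217 named genes were detected.

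**Figure D1:**
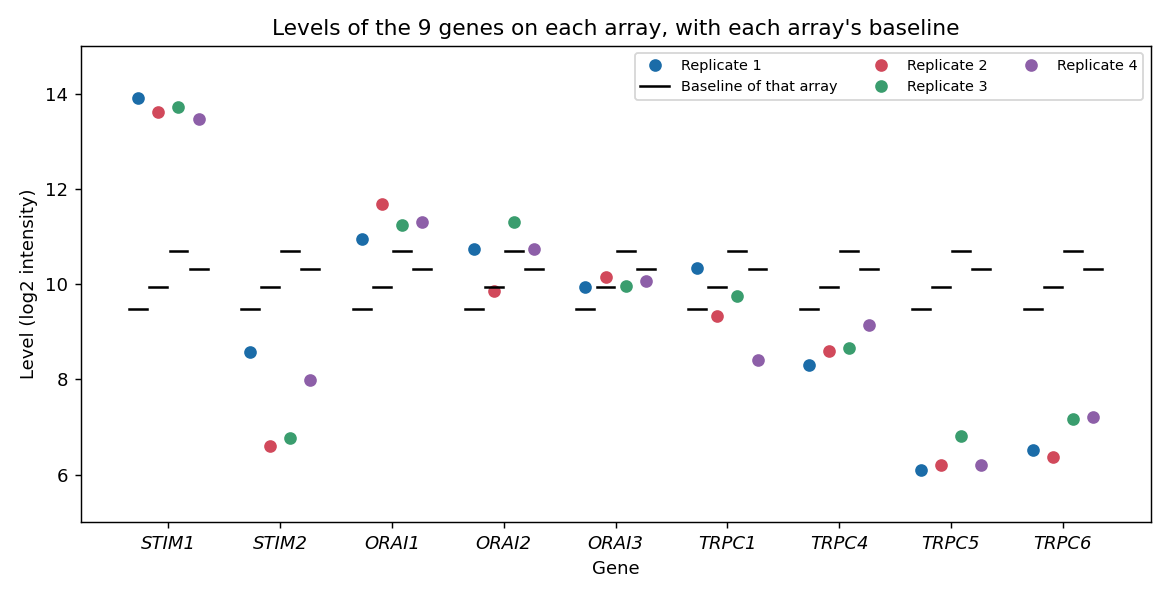
Level of each of the 9 genes in log2 intensity (vertical axis) on each of the 4 arrays (coloured points), with the baseline of the same array as a black bar. STIM1 and ORAI1 sit above the bar on all 4 arrays, ORAI3 on 2 of 4, and STIM2, TRPC4, TRPC5 and TRPC6 on none.

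The sensors fell on opposite sides of the baseline. STIM1, the sensor that responds when stores are strongly depleted, had levels of 13.90, 13.61, 13.71 and 13.46 log2 units on replicates 1 to 4. All 4 values stood clear of the baselines, and the mean distance was 3.57 ± 0.64 log2 units (SD, n = 4). The SD of its level was 0.18 log2 units, and 90.1% of named genes had an SD at least as large. Its 3 probes had mean levels of 13.46, 13.54 and 13.86 log2 units, and each lay above the baseline on all 4 arrays, although the second ran from 12.70 on replicate 3 to 14.19 on replicate 1. STIM1 was detected and passed the limma test under all 20 alternative settings run, with distances from 2.25 to 5.89.

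STIM2, the sensor known to react to small falls of store calcium, had levels of 8.58, 6.60, 6.77 and 7.99 log2 units on replicates 1 to 4. Replicates 1 and 4 were the high arrays and replicates 2 and 3 the low ones, and all 4 values lay below the baseline of their array. The mean distance was -2.62 ± 1.33 log2 units (SD, n = 4). The SD of its level, 0.96 log2 units, was reached or exceeded by 5.38% of named genes. Each of its 3 probes was below the baseline on each of the 4 arrays, with mean levels of 7.04, 7.12 and 7.90. On replicates 2 and 3 STIM2 lay within the range of the 8 low control genes of that array. It was below the baseline under all 20 alternatives, at -0.29 where it came closest, without SPATA5 and SPATA13 as controls.

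All 3 pore subunits had mean levels within 1.19 log2 units of the baseline. ORAI1, the pore of the calcium release-activated current in lymphocytes, had levels of 10.94, 11.69, 11.24 and 11.30 log2 units on replicates 1 to 4. Every array was above its baseline, by 0.55 to 1.75, and the mean distance was 1.19 ± 0.53 (SD, n = 4, limma adjusted p = 0.000878). The test no longer passed on replicates 1 and 3 alone, where the distance was 1.01 (limma adjusted p = 0.127), or on replicates 3 and 4 alone, at 0.77 (limma adjusted p = 0.0524). With a baseline of 3 SD the distance of ORAI1 was -0.13. Over all 20 alternatives its limma adjusted p ran from 6.2e-18 to 1.0.

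ORAI2, a pore subunit that can assemble with the other ORAI proteins, had levels of 10.74, 9.85, 11.31 and 10.74 log2 units on replicates 1 to 4. Replicate 2 was the low array and had a distance of -0.09, while the other 3 were above theirs. The mean distance was 0.56 ± 0.56 log2 units (SD, n = 4). The gene was therefore detected by the study's rule, but the limma test did not pass (adjusted p = 0.120). It passed at 0.87 with the median of the probes (limma adjusted p = 0.0121) and under the 4 alternatives that lowered the baseline to between 7.78 and 8.79 log2 units, and over all 20 alternatives the adjusted p ran from 5.35e-13 to 1.0.

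ORAI3, a subunit found in mammals that also forms channels with ORAI1, had levels of 9.94, 10.14, 9.97 and 10.07 log2 units on replicates 1 to 4. The level over its 3 probes had an SD of 0.09 log2 units between arrays, and 98.3% of named genes had an SD at least as large. Single probes moved more: the one of middle mean level stood at 9.40, 10.61, 7.16 and 10.05, lowest on replicate 3, where the brightest, at 10.71, 10.50, 11.09 and 10.17, was highest. The baseline moved more than this averaged level, and ORAI3 was above it on replicates 1 and 2 and below it on replicates 3 and 4. The mean distance was -0.07 ± 0.52 log2 units (SD, n = 4), which places ORAI3 within its spread of the baseline on either side. It turned to 0.14 without replicate 3 and to 0.33 on replicates 1 and 2 alone, and to 1.24 with a baseline of 1 SD.

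No TRPC member of the set was detected, and with mean distances below 0 none could pass the one-sided limma test before or after adjustment. The mean levels of TRPC1 and TRPC4, 9.46 and 8.68 log2 units, lay above the control mean of 7.47. Those of TRPC5 and TRPC6, 6.33 and 6.82, lay below it. Most named genes, 13416 of 17217, lay above that mean. TRPC1, which forms channels with other TRPC subunits, had levels of 10.33, 9.33, 9.76 and 8.41 log2 units on replicates 1 to 4. Replicate 1 was above its baseline, by 0.86, and the other 3 were below theirs. The mean distance was -0.65 ± 1.15 log2 units (SD, n = 4), smaller than the spread. The SD of its level, 0.81, was reached or exceeded by 10.5% of named genes. TRPC1 stood at 0.13 on replicates 1 and 2 alone, and at 0.67 with a baseline of 1 SD.

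TRPC4, a channel of the subgroup it forms with TRPC5, had levels of 8.31, 8.60, 8.66 and 9.14 log2 units on replicates 1 to 4. All 4 were below the baseline, and the mean distance was -1.43 ± 0.41 (SD, n = 4). On each array TRPC4 nevertheless lay above the 8 low control genes. It was above the baseline, at 0.90, 0.66 and 0.28, where the controls were taken without SPATA5 and SPATA13, from olfactory receptor genes, or by their median and scaled median absolute deviation.

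TRPC5, the close relative of TRPC4, had levels of 6.10, 6.20, 6.82 and 6.20 log2 units on replicates 1 to 4, with replicate 3 highest. Its mean distance was -3.77 ± 0.32 log2 units (SD, n = 4). TRPC6, a channel opened by diacylglycerol, had levels of 6.52, 6.37, 7.17 and 7.21 log2 units on replicates 1 to 4, with replicates 3 and 4 above replicates 1 and 2. Its mean distance was -3.29 ± 0.30 log2 units (SD, n = 4). TRPC6 lay within the range of the 8 low control genes on 4 of 4 arrays and TRPC5 on 3 of 4. Neither gene reached the baseline under any of the 19 alternatives that gave a value for it.

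TRPC7, a TRPC channel outside the set that diacylglycerol also opens, lay at -3.49 ± 0.39 log2 units (SD, n = 4), below the baseline on all 4 arrays.

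Probes of a gene did not always speak alike. Of the 27 member probes, 9 had a mean distance above 0, against 47.6% of all probes of named genes. STIM1 supplied 3 of the 9, ORAI1 and ORAI2 2 each, and ORAI3 and TRPC1 1 each. The 3 probes of ORAI1 had mean levels of 8.71, 11.20 and 12.19 log2 units, a range of 3.47, and the lowest was below the baseline on all 4 arrays while the other 2 were above it on all 4. ORAI2 showed the same split, with probes at 8.94, 10.84 and 11.29. For TRPC1 the probes stood at 8.25, 8.57 and 10.44, and 2 of the 3 never reached the baseline. Averaged over the 4 arrays the probes of TRPC5, all far below the baseline, differed by 0.06 log2 units and those of STIM1 by 0.41, but on replicate 3 the TRPC5 probes stood at 6.03, 7.06 and 7.13 and the STIM1 probes at 13.72, 12.70 and 14.30. Probe values were averaged on the linear scale, where the brightest probe weighs most. With the mean of log2 probe values, which also put the baseline at 9.77, the distance was 0.93 for ORAI1, 0.59 for ORAI2 and -0.68 for TRPC1, and no member's call changed.

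**Figure D2:**
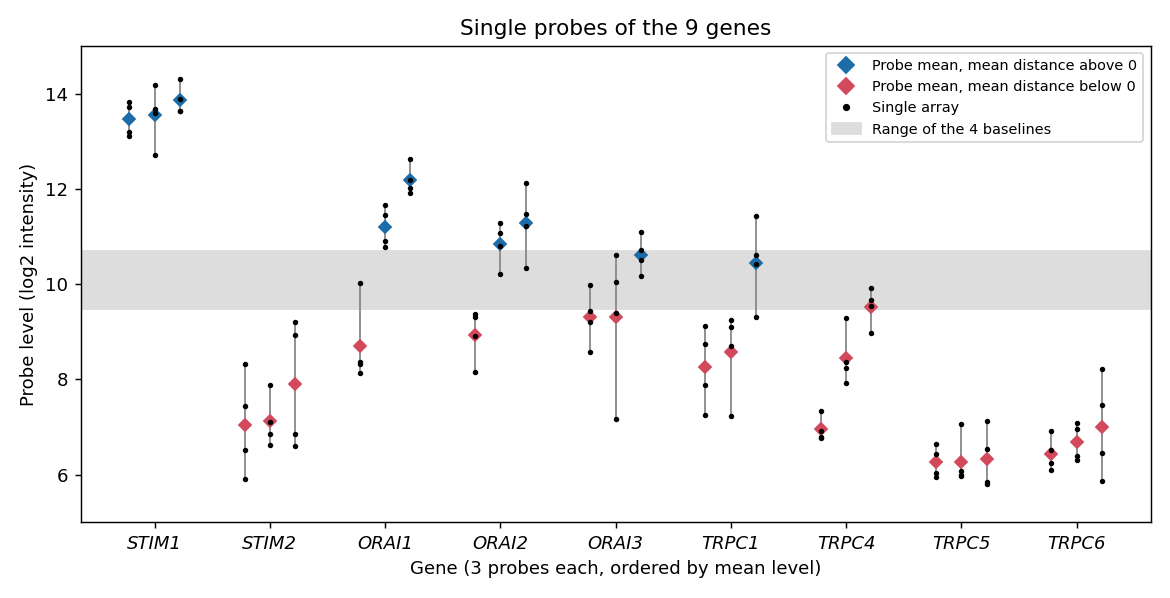
Level of each of the 27 probes in log2 intensity (vertical axis), 3 per gene ordered by mean level; diamonds are means over 4 arrays, dots single arrays, lines the range, and the grey band the range of the 4 baselines. The 3 probes of STIM1 lie together above the band, those of TRPC5 below it, and those of ORAI1 span 3.47 log2 units.

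The pairs of arrays seen for NEFM were about as common in the set as over all named genes. Levels on replicates 1 and 3 did not overlap with those on replicates 2 and 4 for 4 of the 9 genes, STIM1 and TRPC1 (higher on replicates 1 and 3) and ORAI1 and ORAI3 (lower), while 40.7% of all named genes separated in this way. The mean levels on replicates 1 and 3 and on replicates 2 and 4 were 10.04 and 8.87 log2 units for TRPC1 and 13.81 and 13.54 for STIM1. They were 11.09 and 11.50 for ORAI1 and 9.95 and 10.11 for ORAI3, and no label explains the pairs.

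The sequences before the genes' start sites were examined for features that the array values did not use. RefSeq promoter windows (build GRCh38.p14) were held for 7 of the 9 genes, and ORAI1 and TRPC5 had none in the table. The windows of 3 genes with 1 annotated start are printed, since these are a detected pore, an undetected sensor and an undetected channel. Each gives the 250 bases before the start, 5′ to 3′, in lower case with CG dinucleotides in capitals.
ORAI2, chr7:102433325-102433574, plus strand: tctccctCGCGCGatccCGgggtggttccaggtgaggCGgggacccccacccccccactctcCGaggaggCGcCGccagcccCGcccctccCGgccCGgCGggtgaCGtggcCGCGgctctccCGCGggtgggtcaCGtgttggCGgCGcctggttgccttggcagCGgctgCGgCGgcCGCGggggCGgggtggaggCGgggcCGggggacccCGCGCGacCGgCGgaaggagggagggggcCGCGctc
STIM2, chr4:26860591-26860840, plus strand: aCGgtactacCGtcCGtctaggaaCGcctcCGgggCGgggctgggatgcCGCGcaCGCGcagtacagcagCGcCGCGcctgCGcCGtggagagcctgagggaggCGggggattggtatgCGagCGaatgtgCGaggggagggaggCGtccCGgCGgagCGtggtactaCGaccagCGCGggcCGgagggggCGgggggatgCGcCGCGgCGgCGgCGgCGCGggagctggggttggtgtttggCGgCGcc
TRPC6, chr11:101584008-101584257, minus strand: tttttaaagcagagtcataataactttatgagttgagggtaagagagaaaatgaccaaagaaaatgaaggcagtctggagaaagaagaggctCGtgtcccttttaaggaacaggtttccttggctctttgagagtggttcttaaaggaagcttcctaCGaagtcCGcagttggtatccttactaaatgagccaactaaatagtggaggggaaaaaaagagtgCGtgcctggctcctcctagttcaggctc

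The ORAI2 window held 35 CG dinucleotides, the STIM2 window 38 and the TRPC6 window 4. Over 13807 named genes with a window, 7.6% held at least as many as ORAI2, 4.2% as many as STIM2 and 84.2% as many as TRPC6. ORAI3 held 13 and TRPC4 17. STIM1 had 4 annotated starts, whose windows held from 5 to 35, and TRPC1 had 2, with 14 and 0. The median was 22 for the 7588 detected genes with a window and 9 for the other 6219. STIM2 thus had a window as rich in CG dinucleotides as that of ORAI2 while its array level stayed below the baseline. Genes are not replicates, and these numbers describe the windows only.

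Genes that act with STIM, ORAI and TRPC proteins were then counted by role. Over all 70 matched genes of these lists 39 were detected, against the 52.7% of all named genes given above, and the median distance was 0.44 log2 units. Of 12 regulators of store-operated entry, 8 were detected and 6 passed the limma test. SARAF, which turns STIM1 off after the store has refilled, stood at 5.05 ± 0.71 log2 units (SD, n = 4). The scaffold HOMER2 stood at 4.13 ± 0.66, ORMDL3 at 2.50 ± 1.34 and SLC35G1, a partner of STIM1, at 2.10 ± 0.71 (SD, n = 4 for each). With the mean of log2 probe values SLC35G1 stood at 1.01. With a baseline of 3 SD it stood at 0.78, and its limma test did not pass (adjusted p = 0.0687). STIMATE, which promotes STIM1 activation at membrane contacts, was above the baseline on all 4 arrays, by 0.79 ± 0.35 (SD, n = 4), and passed the limma test with an adjusted p of 0.0264. That test no longer passed without replicate 1, 2 or 4, at distances of 0.65, 0.79 and 0.79, nor with the pairs of replicates 1,2 and 3,4 as a random block (limma adjusted p = 0.0727), with a trended and robust variance prior (0.0504), with the mean of log2 probe values (0.0546), or on replicates 1 and 3 or 3 and 4 alone. Over all 20 alternatives its adjusted p ran from 1.99e-14 to 1.0. CRACR2A, a cytosolic calcium sensor that binds ORAI1 and is known from T cells, lay at -2.04 ± 0.57 (SD, n = 4).

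Of 7 genes for proteins at contacts between the endoplasmic reticulum and the plasma membrane, 2 were detected, and the median distance was -1.0 log2 units. The count for these genes was 6 without SPATA5 and SPATA13 as controls or with olfactory receptor controls. Under those settings 12747 and 12289 of the 17217 named genes were detected. The 2 detected under the reported setting were the extended synaptotagmins ESYT1, at 3.81 ± 0.52, and ESYT2, at 3.29 ± 0.69 (SD, n = 4 for each). Their relative ESYT3 lay at -1.90 ± 0.97 (SD, n = 4), below the baseline on all 4 arrays.

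All 5 genes listed as partners of TRPC proteins were detected and passed the limma test, with a median distance of 3.46 log2 units, although no TRPC member of the set was detected. They were RNF24, the immunophilin FKBP4 at 4.81 ± 0.60, the PDZ scaffold NHERF1 at 4.06 ± 0.36, SESTD1 at 3.46 ± 1.01 and TRPC4AP at 3.44 ± 0.71 (SD, n = 4 for each). These proteins also serve pathways that do not involve TRPC channels. The list, like the others, was chosen with earlier results of these data known, so its full count is no test of the role.

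Among genes that empty and refill the store, 5 of 9 were detected, ITPR1, ITPR2, ITPR3, RYR1 and ATP2A2. Without SPATA5 and SPATA13 as controls all 9 were, as were 12747 of the 17217 named genes. RYR2 and ATP2A3, counted as not detected, lay almost at the baseline, at -0.0 ± 1.25 and -0.01 ± 0.49 (SD, n = 4 for each). The IP3 receptor ITPR3 stood at 2.75 ± 0.41 and the calcium pump ATP2A2 at 3.45 ± 0.95 log2 units (SD, n = 4 for each). The value for ATP2A2 averages 2 targets, and with the target of highest mean level alone it was 4.75. ITPR1 stood at 1.42 ± 1.24 (SD, n = 4), with replicate 3 below the baseline at -0.24.

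Downstream of calcium entry, all 3 calmodulin genes were detected, with CALM3 at 5.37 ± 0.68 log2 units (SD, n = 4). Calcineurin, the phosphatase that calmodulin activates, and the NFAT factors it dephosphorylates gave 10 of 13 detected with their regulators, and 7 passed the limma test. The catalytic subunit PPP3CB stood at 2.87 ± 0.48, the calcineurin regulator RCAN1 at 3.54 ± 0.62 and NFATC3 at 1.50 ± 0.69 (SD, n = 4 for each). The value for NFATC3 averages 3 targets, and with the target of highest mean level alone it was 2.63. The regulatory subunit PPP3R1 lay at -0.83 ± 0.90 (SD, n = 4), above the baseline on 1 of 4 arrays.

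**Figure D3:**
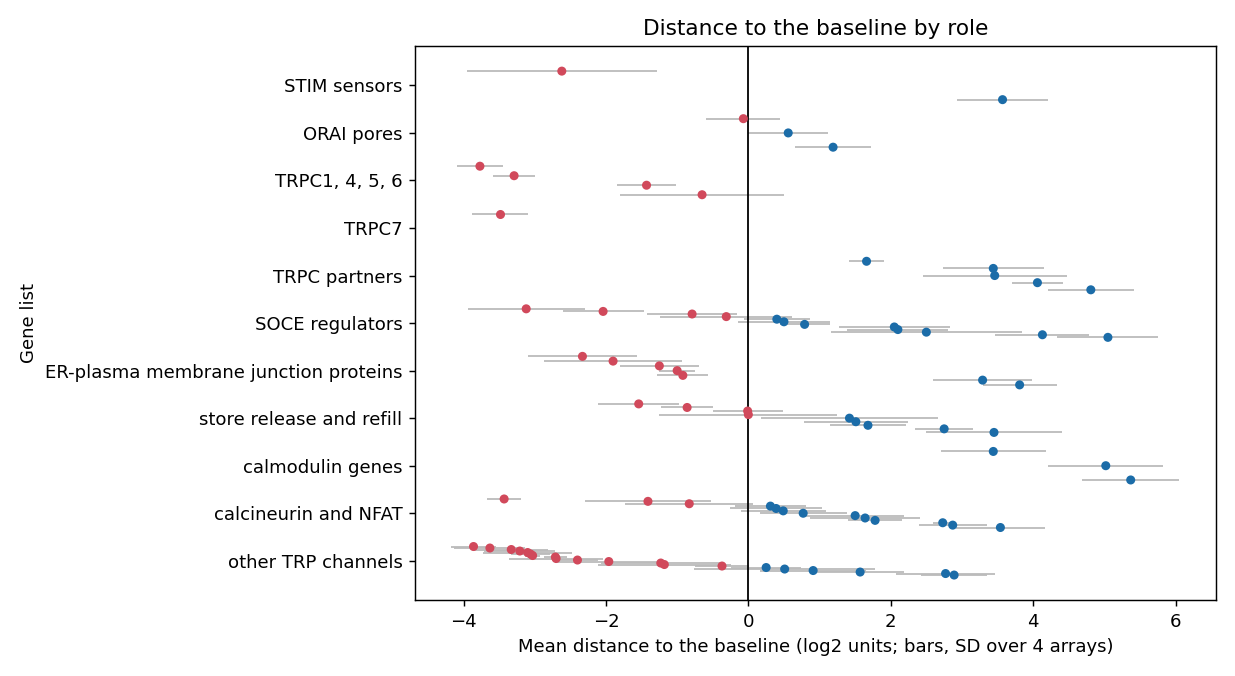
Mean distance to the baseline in log2 units (horizontal axis) of each gene, grouped by role (SOCE, store-operated calcium entry), with bars for the SD over 4 arrays and the line at 0 for the baseline; blue marks a mean above 0 and red a mean at or below it. All 5 TRPC partners and all 3 calmodulin genes lie above 0, and TRPC1, TRPC4, TRPC5 and TRPC6 below it.

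Other TRP channels were counted as the family the TRPC genes belong to. Of 21 listed, 20 were matched and 6 were detected (10 without SPATA5 and SPATA13 as controls and 3 with a baseline of 3 SD), with a median distance of -2.18 log2 units, against -2.36 for the 4 TRPC members. The lysosomal channels MCOLN1 and MCOLN3 stood at 2.89 ± 0.46 and 2.77 ± 0.70 (SD, n = 4 for each). TRPM7, a channel with its own kinase domain, lay at 0.51 ± 1.27 (SD, n = 4), and its limma test did not pass (adjusted p = 0.155). Replicate 3 of TRPM7 was the low array, at -1.28, and without it the distance was 1.10 and the test passed.

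**Figure D4:**
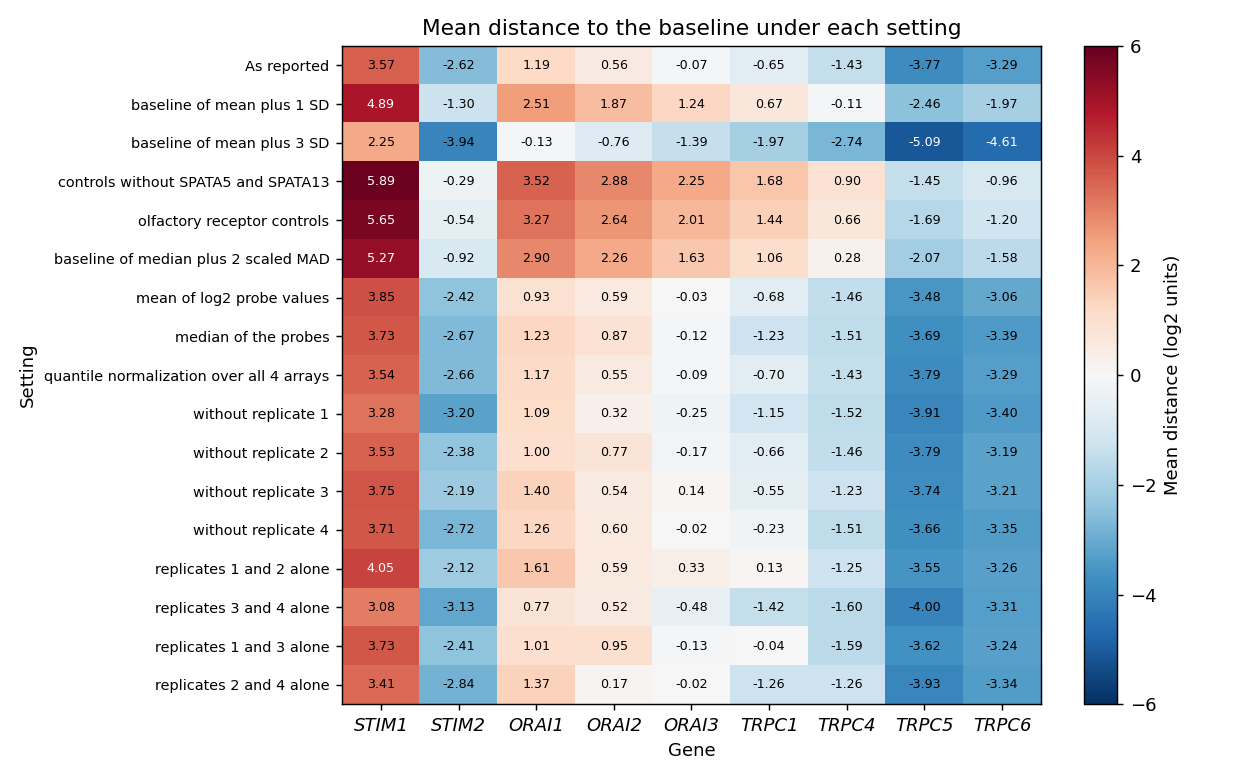
Mean distance to the baseline in log2 units (colour and printed values) of each of the 9 genes (columns) under the reported setting and 16 alternatives (rows). STIM1 is above 0 and STIM2, TRPC5 and TRPC6 are below 0 in every row, while each of the other 5 genes changes sign in at least 1 row.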

How the data were processed

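RNA from 4 HEK293 cultures was copied into double-stranded cDNA with an oligo(dT) primer, labelled with Cy3 and hybridised to NimbleGen arrays of 60-base probes designed on human build HG18. The deposited table holds log2 values of single probes, from 5.14 to 15.99. The submitters' processing notes name RMA without giving it a role. Sorted values were within 0.01 at 99.97% of ranks between replicates 1 and 2 and at 99.99% between 3 and 4, but at 1.23% to 1.25% across those pairs, the form that normalization in 2 pairs leaves. Raw spots and their background were not analysed here, and the number of arrays limits the precision.

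Probe accessions, stripped of versions, were named through RefSeq's gene table (GRCh38.p14, names only), which covered 19125 of 24000 targets. A target's level was log2 of its probes' linear mean, and a gene's level the mean of its targets. Of 11 control genes listed, 10 were matched. Distances were tested against 0 in limma 3.58 (R 4.3), one-sided, over 17217 genes with Benjamini-Hochberg adjustment at 0.05; the prior degrees of freedom were infinite, so each gene took an SE of 0.351. An array's baseline moves all its genes together, so tests were not independent. The limma script was tested on simulated data with noise independent between genes, which does not cover the effect of a shared baseline. Named genes were the members, the controls and lists by role, all chosen with earlier results of these data known. Alternatives varied the baseline, controls, probe summary, normalization, arrays and variance model; 1 gene of those lists is not reported here, and the sum over them was added after seeing the data.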

Additional observations from a re-analysis of the deposited data

Results flagged for a closer look

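Values of the 4 arrays were screened with Dixon's ratio of gap to range in 44 sets, for the members' levels and distances, the distances of named genes of the role lists and the baseline. Past its 95% critical value were 2 sets, and about 1 in 20 would pass by chance. TRPC5 gave a ratio of 0.855, since its level was 6.82 log2 units on replicate 3 and no higher than 6.20 elsewhere. TRPC4AP gave 0.917, since its distance on replicate 3 was 2.37 log2 units while the remaining arrays held 3.73, 3.81 and 3.85. The levels of TRPC4AP, which were not screened, were 13.20, 13.79, 13.06 and 14.13 log2 units on replicates 1 to 4. The baseline of replicate 3, at 10.69, was the highest of the 4 and is subtracted in the distance. Its part in the value for TRPC4AP was not tested.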

How the results depend on the processing

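Counts followed the baseline. At 1 SD it stood at 8.79 log2 units, with 5 members detected and 5 passing limma, and the distances of ORAI3, TRPC1 and PPP3R1 turned to 1.24, 0.67 and 0.49. At 3 SD it stood at 11.42, with 1 and 1, and ORAI1, ORAI2, STIMATE and TRPM7 turned to -0.13, -0.76, -0.52 and -0.81. Without SPATA5 and SPATA13 it was 7.78, with 6 and 6, and ORAI3, TRPC1, TRPC4, CRACR2A, ESYT3 and PPP3R1 turned to 2.25, 1.68, 0.90, 0.28, 0.43 and 1.50. With olfactory receptor controls it was 8.02, with 6 and 6, and the same genes in that order turned to 2.01, 1.44, 0.66, 0.04, 0.19 and 1.26. With the median and scaled MAD it was 8.40, with 6 and 5, and ORAI3, TRPC1, TRPC4 and PPP3R1 turned to 1.63, 1.06, 0.28 and 0.88. These shifts follow from the baseline itself. Over all 17217 named genes the detected counts at these settings were, in the same order, 11075, 6731, 12747, 12289 and 11657. On replicates 1 and 2 alone 5 members were detected, with ORAI3 at 0.33 and TRPC1 at 0.13, and 9630 of all named genes were detected. On replicates 3 and 4 alone limma called 1 member, with TRPM7 at -0.39, and on replicates 1 and 3 alone also 1; the cause was not tested. With single replicates left out the distance of ORAI3 ranged from -0.25 to 0.14. Of the other values for members' distances, 155 kept their direction and side of the threshold, 5 gained significance and 2 lost it. Quantile normalization over all 4 arrays changed no member's call. With pairs 1,2 and 3,4 as a random block (estimated correlation 0.339) no member's call changed, and STIMATE, at 0.79, lost its call. Counts for the role lists moved by over 1.5 times with the baseline: of 7 contact-site genes 5 to 6, and of 9 store genes 8 to 9, lay above the lowered baselines, and of 20 other TRP channels 10 without SPATA5 and SPATA13 or with olfactory receptor controls. At 3 SD the counts were 3 for other TRP channels, 5 for regulators of store-operated entry and 6 for calcineurin and NFAT genes.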
